A study of Mus musculus with 22 samples.

Results

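The bulk RNA-seq libraries of GRDim mice fell on both sides of a wide gap in their content of smooth-muscle RNA, and this report describes what lay on each side. GRDim mice carry a mutant glucocorticoid receptor that dimerises poorly. The sides were chosen by the measured level of Myh11, the smooth-muscle myosin heavy chain, in these same libraries. A library was called muscle-rich when Myh11 exceeded 100 CPM, the count scaled to the library's total, and muscle-poor when it was below that level. By this rule, 6 of the 12 GRDim libraries were muscle-rich and 6 were muscle-poor, out of 22 libraries in the whole series. All mice were female and FVB/N, 8 to 14 weeks old, and GRDim mice and their wild-type (GRWT) counterparts came from intercrosses of heterozygous animals in a conventional animal house. They received normal drinking water or water with 25 mM ZnSO4 for 7 days. The tissue labels are ileum, a piece kept whole in RNAlater, and IEC, for intestinal epithelial cells, scraped from the inner side of about 5 cm of distal ileum after incubation in lysis buffer.

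The wall of the small intestine is built in layers. A single sheet of epithelium lines the lumen and renews itself from stem cells in the crypts, giving absorptive enterocytes, goblet cells, Paneth cells, enteroendocrine cells and tuft cells. Beneath it lies the lamina propria, with fibroblasts, vessels, macrophages and IgA-secreting plasma cells, and outside that lie the smooth-muscle layers, the enteric nerve plexuses and the serosa. The epithelium sends Hedgehog signals outwards, and the mesenchyme returns Wnt, R-spondin and BMP signals that set the crypt-villus axis.

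The sides did not follow the tissue labels. On water, the 3 muscle-rich libraries were those labelled IEC and the 3 muscle-poor ones those labelled ileum, which goes against the labels, while on zinc the 3 muscle-rich libraries were labelled ileum and the 3 muscle-poor ones IEC. Each side therefore held 3 water and 3 zinc libraries and 3 of each label, so the difference between the sides with drinking water as covariate is balanced over both. Any difference between zinc and water within a side is at the same time a difference between labels, and these cannot be told apart. Library totals of the 12 libraries were 13487057 to 15362805 counts, and the detection floor used here, 3 counts, lay at 0.195 to 0.222 CPM. A pair of water ileum columns share a column name and are called unnumbered-a and unnumbered-b. Their counts differed by 5.55 times the sampling noise (mean chi-square per gene), within the range of the other replicate pairs (4.47 to 24.3), so they were counted as separate libraries.

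Myh11 (chromosome 16, 14194535 to 14291372, GRCm38) stood at 308 to 414 CPM in the muscle-rich libraries and at 5.76 to 14.4 CPM in the muscle-poor ones, with no library in between. Because this gene chose the sides, every difference between them is given as a description with its standard error (SE) and without a test. Levels below are CPM normalised by the trimmed mean of M-values (TMM), and differences are muscle-rich minus muscle-poor on the log2 scale. A gene was counted when its log2 difference was beyond 1 and no muscle-rich library overlapped a muscle-poor one. Overlap was judged with water and zinc libraries pooled. A gene that responds to zinc can thus overlap although its sides separate within each drinking water. Of 15459 genes, 9511 overlapped between the sides. Of all genes, 2468 (16.0%) were counted as higher in the muscle-rich libraries and 124 (0.802%) as higher in the muscle-poor ones. The muscle-rich differences were also the larger ones. Of the 2468 genes, 1043 differed by more than 4 on the log2 scale, while of the 124 genes, 11 were beyond -2. In bulk RNA, fewer cells of a type and less of its RNA per cell cannot be told apart.

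**Figure D1:**
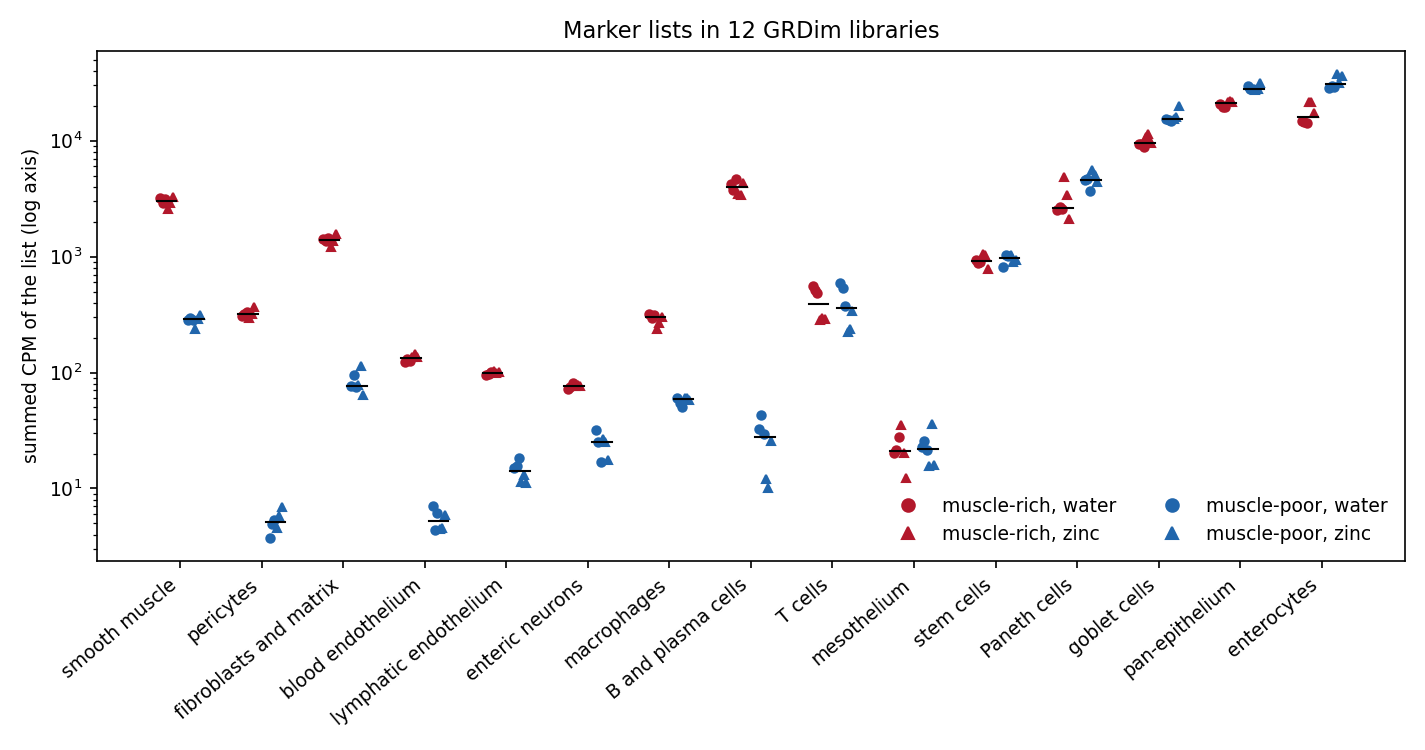
Summed normalised CPM of 15 marker lists (x axis) in each of the 12 GRDim libraries on a log axis. Red symbols are muscle-rich and blue symbols muscle-poor libraries, circles are water and triangles zinc, and black bars are medians. The smooth-muscle list sits between 2556 and 3272 CPM in muscle-rich and between 235.7 and 312.3 CPM in muscle-poor libraries, whereas the T cell and mesothelium lists overlap.

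All 16 contractile and cytoskeletal genes of the smooth-muscle list were higher in muscle-rich libraries, with a median log2 difference of 5.39 against -0.0032 over all genes tested. Acta2, the smooth-muscle actin (chromosome 19, 34241090 to 34255590), lay between 316 and 419 CPM (median 375) in muscle-rich and between 4.03 and 8.32 CPM (median 6.98) in muscle-poor libraries. The difference was 5.80 ± 0.12, a 55.9-fold higher level. Actg2, the enteric actin, was 63.9-fold higher, and Cnn1, the actin-binding calponin, differed by 6.08 ± 0.20. Mylk, the myosin light chain kinase, was the exception in size. It still stood at 175.2 to 214.8 CPM in muscle-poor libraries against 496 to 564 CPM in muscle-rich ones, a difference of 1.45 ± 0.05. Myocd, the co-activator that drives the contractile programme with serum response factor, differed by 5.64 ± 0.27. Srf itself overlapped between the sides, with a log2 difference of -0.39 ± 0.09.

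Serum response factor binds the CArG box, and the promoters of the smooth-muscle list were searched for it to show which of these genes carry one next to their start. RefSeq promoters (GRCm38.p6, 250 bases before the start) were found for 13 of the 16 genes, and for Myh11, Tagln and Actg2 none was used. The box was read as CC, 6 bases of which at most 1 is G or C, and GG, a form that reads the same on both strands. It occurred in Acta2, Myl9 and Synm, 3 of 13 genes (23.1%), against 9.78% of all 27025 gene symbols with a promoter. With a core of A and T alone it occurred in Myl9, 1 of 13 genes (7.69%), against 1.62% of all. Vil1, which encodes the microvillus protein villin and was higher in the muscle-poor libraries, also has a box with such a core. The windows below are written 5′ to 3′ on the gene's strand with the boxes in capitals. They cover chr19:34255374-34255473 (minus strand) for Acta2, chr2:156775289-156775388 (plus) for Myl9, chr7:67759933-67759992 (minus) for Synm and chr1:74409284-74409383 (plus) for Vil1.
Acta2: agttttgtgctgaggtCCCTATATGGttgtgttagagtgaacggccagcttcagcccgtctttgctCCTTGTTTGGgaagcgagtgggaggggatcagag
Myl9: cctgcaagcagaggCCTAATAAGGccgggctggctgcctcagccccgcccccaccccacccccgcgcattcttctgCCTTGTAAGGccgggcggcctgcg
Synm: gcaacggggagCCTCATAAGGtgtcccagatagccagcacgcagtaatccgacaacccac
Vil1: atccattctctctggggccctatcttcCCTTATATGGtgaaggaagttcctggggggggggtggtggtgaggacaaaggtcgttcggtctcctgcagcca
The boxes of Acta2 begin 84 and 34 bases before the start, those of Myl9 161 and 99 bases before, that of Synm 239 bases before and that of Vil1 73 bases before. A match of letters is a description and not evidence of binding.

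The nerve plexuses lay on the muscle-rich side. Of 14 enteric neuron markers, 12 passed the filter on low counts and 10 were counted as higher in muscle-rich libraries. Vip, the relaxing neuropeptide of inhibitory motor neurons, ranged from 10.03 to 20.2 CPM (median 13.4) in muscle-rich libraries and was at 0 in 5 of 6 muscle-poor ones. Only 2 counts were found on the whole muscle-poor side against 1322, a ratio of 636 (95% counting interval 176 to 5260). Nos1, the neuronal nitric oxide synthase, differed by 5.00 ± 0.37. Tac1, which encodes substance P and is also made by enteroendocrine cells, overlapped between the sides at 0.21 ± 0.16, as did the receptor gene Ret at 0.66 ± 0.20. Among glial markers, Sox10, the transcription factor of enteric glia, was at 0 in all 6 muscle-poor libraries and at least 19.6-fold higher in muscle-rich ones, with the floor of 3 counts taken over the whole side. Entpd2 and Erbb3 of the same list were lower, by -0.50 ± 0.08 and -0.49 ± 0.07. The markers of interstitial cells of Cajal, the pacemakers of gut movement, differed less. Kit was at 30.6 to 33.7 CPM in muscle-rich and 21.9 to 29.5 CPM in muscle-poor libraries, a difference of 0.29 ± 0.06. Ano1, their chloride channel, differed by 0.85 ± 0.12 and the transcription factor Etv1 by 2.34 ± 0.13.

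Connective tissue and vessels lay on the same side. Of 16 fibroblast and matrix genes, 15 were counted as higher, with a median log2 difference of 4.94. Col3a1, a fibrillar collagen, ranged from 267 to 368 CPM in muscle-rich and from 5.39 to 14.5 CPM in muscle-poor libraries, a difference of 5.21 ± 0.21. Pdgfra, the growth factor receptor of subepithelial fibroblasts, differed by 6.99 ± 0.13. Fbln1, a matrix fibulin, was the one that overlapped, at 0.83 ± 0.15. All 5 pericyte and all 10 blood endothelium markers were counted as higher, with medians of 5.09 and 6.36. Cdh5, the cadherin of endothelial junctions, was at 11.8 to 14.1 CPM against at most 0.155 CPM, and 2 muscle-poor libraries held none. Of 5 lymphatic markers that passed the filter, 4 were counted, led by Flt4, the receptor for VEGF-C, with 1251 counts against 3 and a ratio of 401 (95% counting interval 137 to 1949). Prox1, the lymphatic transcription factor, overlapped at 0.53 ± 0.12.

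Immune markers differed by cell type. Of 10 macrophage markers, 9 were counted as higher in muscle-rich libraries, among them Csf1r, the receptor that keeps macrophages alive, at 4.47 ± 0.15, and the complement gene C1qa at 4.87 ± 0.11. Plasma cell RNA showed one of the widest separations. Jchain (chromosome 5, 88519809 to 88527891), whose protein joins IgA into dimers, ranged from 3356 to 4599 CPM (median 3904) in muscle-rich libraries and from 7.97 to 38.0 CPM (median 20.7) in muscle-poor ones. Its difference was 7.64 ± 0.31, or 199-fold. Of 180 immunoglobulin genes that passed the filter, 177 were counted as higher in muscle-rich libraries, and immunoglobulin genes took 1.79% to 2.82% of the counts there against 0.00653% to 0.0312% in muscle-poor libraries. A gene could pass the filter through the muscle-rich libraries alone, so the count of 177 is no test of the separation. These segments resemble each other, and reads that map to several places were left out. Of 12 T cell markers, only Cd4 was counted, at 1.72 ± 0.18. The other 11 overlapped, among them Cd8a at -0.23 ± 0.11, Itgae, the integrin that holds T cells in the epithelium, at -0.01 ± 0.11, and the granzyme Gzma at -0.00 ± 0.14. Cd3e overlapped across the drinking waters but not within them. Scaled over all 22 libraries, it was at 18.6 to 19.8 CPM in muscle-rich and 8.96 to 13.5 CPM in muscle-poor libraries on water. On zinc it was at 11.6 to 12.8 CPM against 6.99 to 8.72 CPM.

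**Figure D2:**
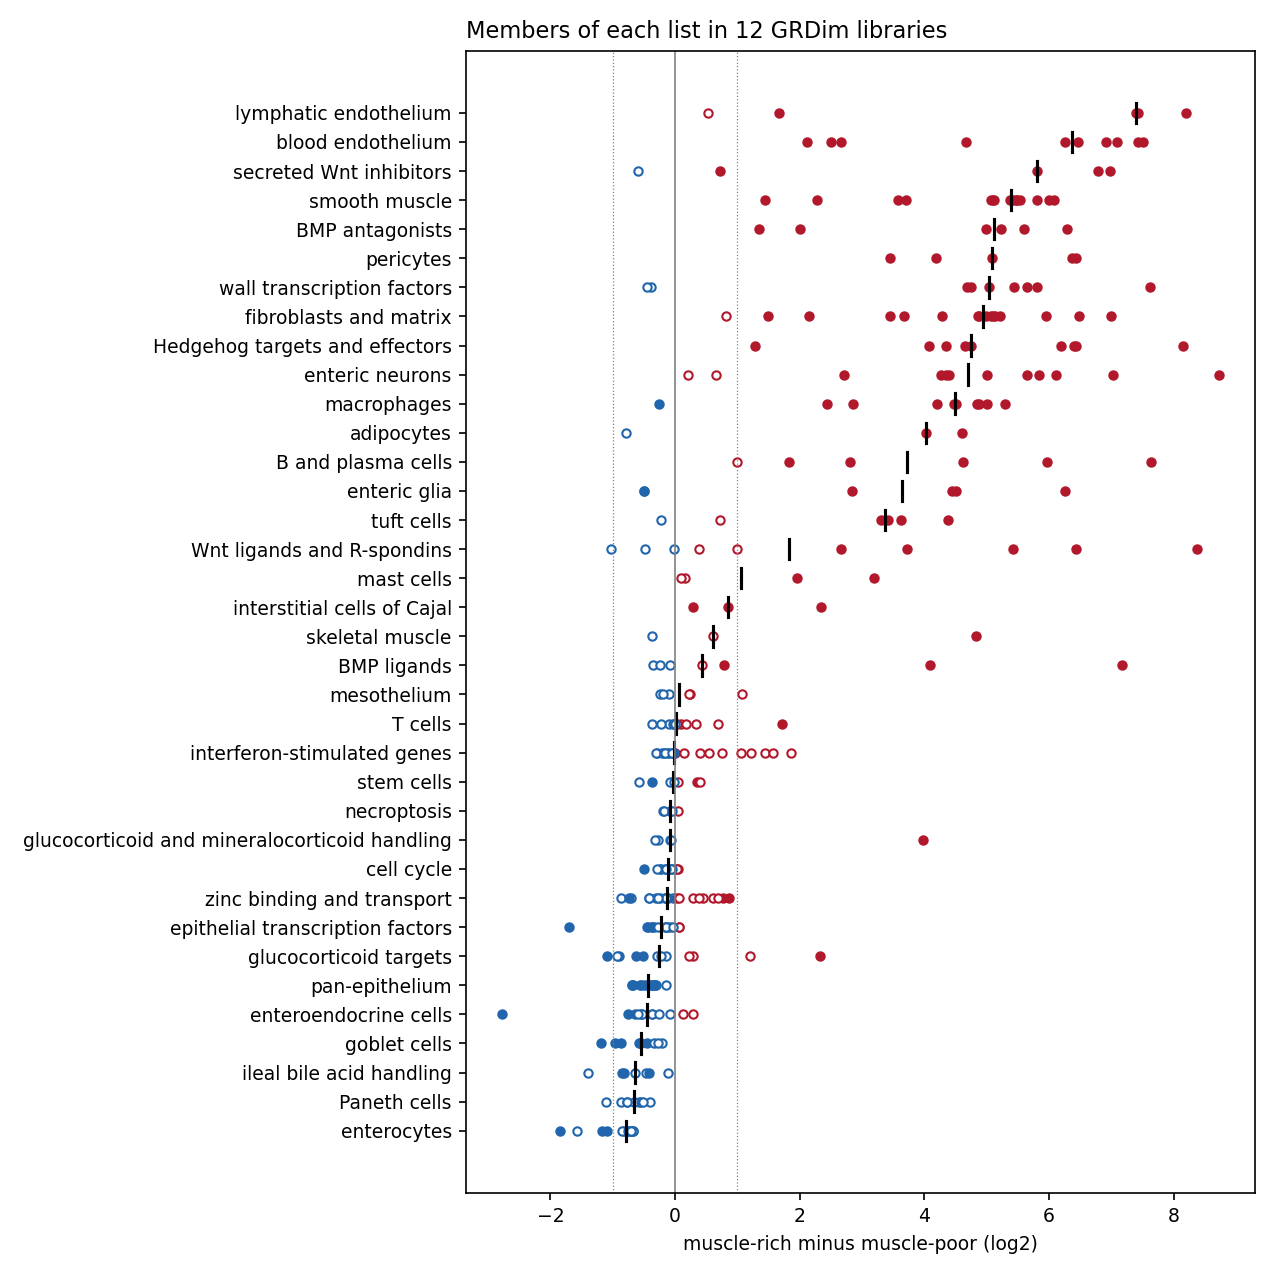
Muscle-rich minus muscle-poor log2 difference (x axis) of each member of the lists (y axis) that passed the filter, ordered by the list's median (black bar). Red symbols are genes higher and blue symbols genes lower in muscle-rich libraries. Filled symbols mark genes whose sides did not overlap, open symbols those that overlapped, and dotted lines mark 1 and -1. The medians of the pan-epithelial, enterocyte, goblet and Paneth lists lie at -0.43, -0.78, -0.55 and -0.65, whereas those of smooth muscle and blood endothelium lie at 5.39 and 6.36.

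Not every neighbouring tissue went with the muscle. All 6 markers of mesothelium, the serosal covering, overlapped between the sides (median 0.07), as did 9511 of all 15459 genes. Of 8 pancreatic acinar markers, Cela1 passed the filter, at -0.19 ± 0.12. Fat markers were uneven. Fabp4 differed by 4.03 ± 0.47, Plin4 by 4.604 ± 0.36 and Cidec by -0.78 ± 0.19, and the summed level of the list reached 66.8 CPM in water IEC replicate 4 against 20.9 to 27.6 CPM in the other muscle-rich libraries. Of 6 skeletal muscle markers, 3 passed the filter. Ckm, the muscle creatine kinase, was higher by 4.84 ± 0.30. Acta1 overlapped at 6.04 to 18.0 CPM in muscle-rich and 4.19 to 13.3 CPM in muscle-poor libraries. Mylpf also overlapped, at 1.86 to 2.60 CPM against 2.40 to 3.03 CPM. Myh1, Myh2 and Tnnt3, which define skeletal muscle, did not pass the filter.

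The 12 named genes with the largest muscle-rich differences included 6 that encode plasma proteins of the liver. These were Serpina3k, Fga, Itih4, Alb, Mup3 and Fgg, of which Serpina3k and Mup3 belong to families of near-identical genes. Alb, serum albumin, stood at 46.7, 14.1 and 2.46 CPM in the muscle-rich water libraries and at 145, 62.5 and 1.69 CPM in the muscle-rich zinc libraries. It did not exceed 0.079 CPM in any muscle-poor library. Acta2 in the same 6 libraries stayed within 316 to 419 CPM. The Alb difference of 9.54 carried an SE of 1.96. The other 6 were Edil3, an endothelial matrix protein (5.47 to 8.33 CPM), Mfap4, a microfibril protein (11.8 to 18.6 CPM), Sox18, an endothelial transcription factor (4.33 to 6.03 CPM), the VEGF receptor Flt1 (10.6 to 13.7 CPM), Vip (10.03 to 20.2 CPM), and Ccl11, the eosinophil attractant eotaxin (10.2 to 16.3 CPM). Edil3 and Sox18 were at 0 in all muscle-poor libraries and thus at least 202-fold and at least 147-fold higher.

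Signals between epithelium and mesenchyme were split by sender and receiver. Ihh (chromosome 1, 74945315 to 74951672), the Hedgehog ligand of the epithelium, was lower in muscle-rich libraries, at 39.7 to 55.8 CPM (median 48.8) against 68.6 to 91.8 CPM (median 80.3), a difference of -0.74 ± 0.05 with no overlap. Shh and Dhh did not pass the filter. All 9 genes of the list of Hedgehog targets and effectors were counted as higher. Hhip, a target that binds and restrains the ligand, was at 15.6 to 27.2 CPM against at most 0.158 CPM, a difference of 8.16 ± 0.22, and an antisense gene lies across it. Gli1, the transcription factor induced by the pathway, differed by 4.65 ± 0.39, and Foxl1 and Foxf1, forkhead factors of the subepithelial cells, by 6.44 ± 0.41 and 6.40 ± 0.16. Ptch1, the receptor, differed by 1.28 ± 0.07 and kept 16.8 to 21.2 CPM in muscle-poor libraries.

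Of 12 Wnt ligands and R-spondins, 10 passed the filter and 5 were counted as higher in muscle-rich libraries. Rspo3, a crypt-supporting R-spondin, was at 2.41 to 3.19 CPM there and at 0 in all muscle-poor libraries, which makes it at least 86.0-fold higher. Rspo2 was likewise at least 22.1-fold higher. Wnt4 differed by 5.42 ± 0.28, Wnt5a by 3.73 ± 0.22 and Wnt2b by 2.66 ± 0.23. Wnt3, the Wnt of Paneth cells, overlapped at -0.47 ± 0.22, as did Wnt6, Wnt9a, Wnt11 and Rspo1. Of 7 secreted Wnt inhibitors, 5 passed the filter and 3 were counted as higher in muscle-rich libraries, with Frzb at 6.98 ± 0.38, Dkk2 at 6.79 ± 0.42 and Dkk3 at 5.81 ± 0.15. Sfrp1 was higher by 0.71 ± 0.14, below the threshold of 1, and Sfrp5 overlapped at -0.59 ± 0.31.

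Of 7 BMP ligands, 2 were counted. Bmp5 and Bmp4 were higher in muscle-rich libraries, by 7.17 ± 0.31 and 4.09 ± 0.16, while Bmp2 overlapped at -0.36 ± 0.08 and Bmp3 at -0.08 ± 0.08. All 6 antagonists that passed the filter were counted as higher in muscle-rich libraries, with a median of 5.11. Grem1, the gremlin of pericryptal muscle and fibroblasts, ranged from 87.3 to 116 CPM against 0.632 to 2.22 CPM, a difference of 6.29 ± 0.14. Chrdl1, a chordin-like antagonist, differed by 5.23 ± 0.32.

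**Figure D3:**
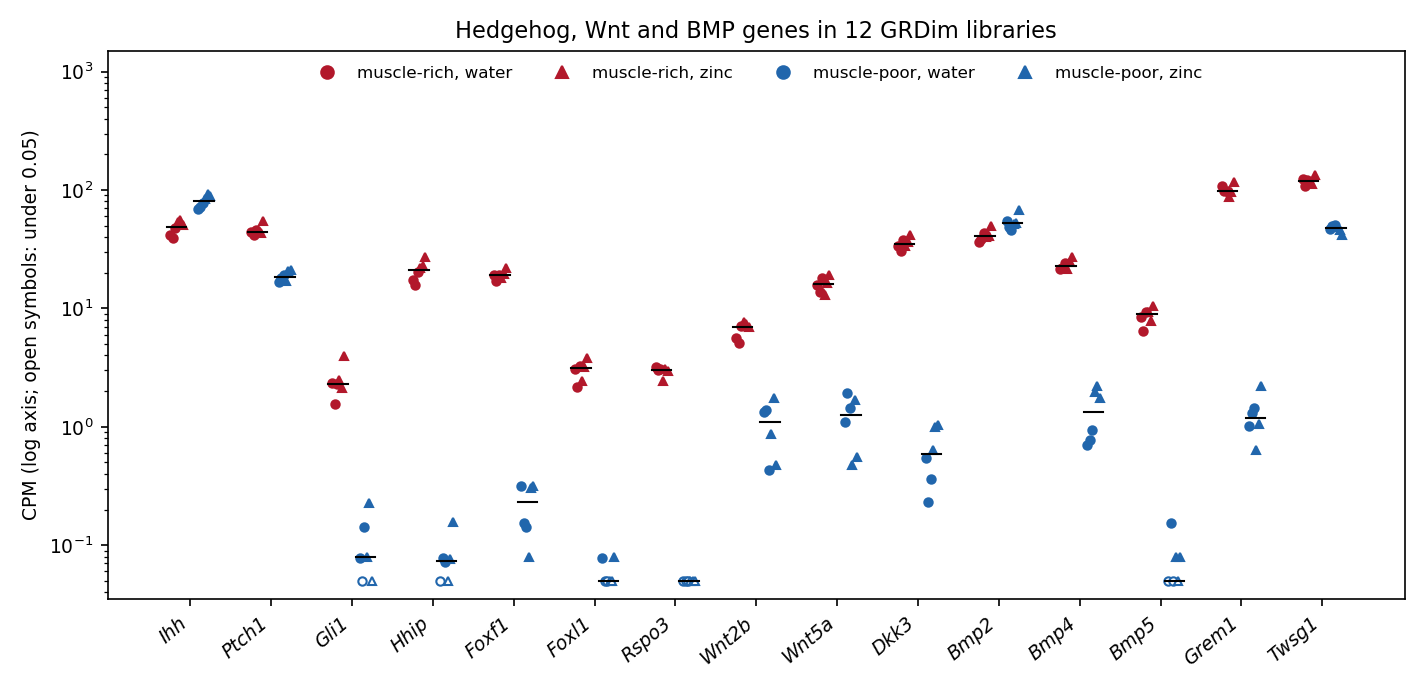
Normalised CPM (log axis) of 15 Hedgehog, Wnt and BMP genes in each GRDim library, with colours, symbols and bars as for the marker lists and open symbols for levels under 0.05 CPM. Ihh and Bmp2 sit slightly lower in muscle-rich libraries, while Rspo3 is at 0 in all 6 muscle-poor ones.

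The epithelium was present on both sides. All 14 pan-epithelial genes had a negative difference, with a median of -0.43, and none reached the threshold of 1. Krt8, an epithelial keratin, was at 4042 to 4737 CPM in muscle-rich and 6067 to 7234 CPM in muscle-poor libraries, a difference of -0.56 ± 0.06. Vil1 differed by -0.69 ± 0.05 and Epcam, the epithelial adhesion molecule, by -0.41 ± 0.05. These sizes move with the scaling. By library totals alone the median over all genes shifted to 0.15 and that of the pan-epithelial list to -0.27, with 13 of 14 genes still negative. The stem cell and cell cycle lists had medians of -0.03 and -0.11. Of 8 stem cell markers, 6 overlapped between the sides, against 9511 of all 15459 genes. Lgr5, the Wnt-target receptor of crypt base stem cells, was slightly higher in muscle-rich libraries at 0.35 ± 0.09, and Rnf43, which removes Wnt receptors, was lower at -0.37 ± 0.06. Of 12 cell cycle genes, 11 overlapped and Mki67 was lower at -0.50 ± 0.06. Paneth cell genes had a median of -0.65 and 8 of 9 overlapped, beside the 9511 of 15459 genes overall.

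All 12 enterocyte genes had negative differences, with a median of -0.78, and 3 were counted. Of the 12, 6 overlapped between the sides, against 9511 of all 15459 genes. Sis, the brush-border sucrase-isomaltase, ranged from 778 to 1586 CPM (median 1000.3) against 3012 to 4449 CPM (median 3713), a difference of -1.84 ± 0.12. Apob, the apolipoprotein of chylomicrons, differed by -1.09 ± 0.12 and Slc5a1, the sodium-glucose transporter SGLT1, by -1.17 ± 0.05. Of the ileal bile acid genes, Fabp6, the bile acid binding protein, differed by -0.85 ± 0.15 and Slc10a2, the apical bile acid transporter, overlapped at -0.11 ± 0.08. All 10 goblet cell genes had negative differences, of which 1 was counted, Fcgbp, a mucus protein, at -1.18 ± 0.12, and 4 overlapped. Tff3, the trefoil peptide, did not overlap but stayed below the threshold of 1, at -0.97 ± 0.07. Of 12 enteroendocrine genes 10 had negative differences, among them Sct, secretin, at -0.75 ± 0.08, while Gcg, proglucagon, overlapped at 0.29 ± 0.11. Of the tuft cell list, 4 of 6 genes that passed the filter were counted as higher in muscle-rich libraries, among them Dclk1 at 3.41 ± 0.23, Alox5 at 3.62 ± 0.24 and Ptgs1 at 4.39 ± 0.12, whereas Trpm5, the ion channel of taste-like cells, overlapped at -0.23 ± 0.23. These 3 named genes are also made by neurons, leukocytes or vessels.

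Among the 12 named genes with the largest differences towards the muscle-poor side, Plb1, a brush-border phospholipase, differed by -3.70 ± 0.73 and ranged from 12.3 to 90.4 CPM in muscle-poor libraries, the highest in zinc IEC replicate 4. Gip, an incretin hormone of the proximal intestine, differed by -2.77 ± 0.59. Slc2a5, the fructose transporter GLUT5, was at 27.6 to 31.0 CPM in muscle-poor and 3.90 to 8.19 CPM in muscle-rich libraries, a difference of -2.33 ± 0.13. The others were Abcc2, an efflux pump, at -2.11 ± 0.24, the sugar-transporter family members Slc5a4b at -2.003 ± 0.36 and Slc5a4a at -1.73 ± 0.20, the alcohol dehydrogenase Adh6a at -1.90 ± 0.40, Ugt2a3, a glucuronosyltransferase, at -1.81 ± 0.31, and Trib3, a pseudokinase, at -1.78 ± 0.16, beside Sis and the clock genes Dbp and Tef. A list of 8 genes of sugar digestion and uptake was written after the values were seen. None of them overlapped between the sides, where 9511 of all 15459 genes did, and 7 were counted as higher in muscle-poor libraries. Mgam, maltase-glucoamylase, differed by -1.67 ± 0.07, and Treh, trehalase, by -0.88 ± 0.07. Of 8 genes of the proximal small intestine, likewise listed afterwards, 7 passed the filter. Of these, 3 were counted as higher in muscle-poor libraries, 1 as higher in muscle-rich ones, and 3 overlapped. Lct, lactase, reached at most 0.142 CPM in muscle-rich libraries and lay between 0.152 and 7.996 CPM in muscle-poor ones (-5.40 ± 1.43). Gata4, the factor of jejunal identity, differed by -1.70 ± 0.22, and Cybrd1, a duodenal iron reductase, went the other way at 1.58 ± 0.15.

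**Figure D4:**
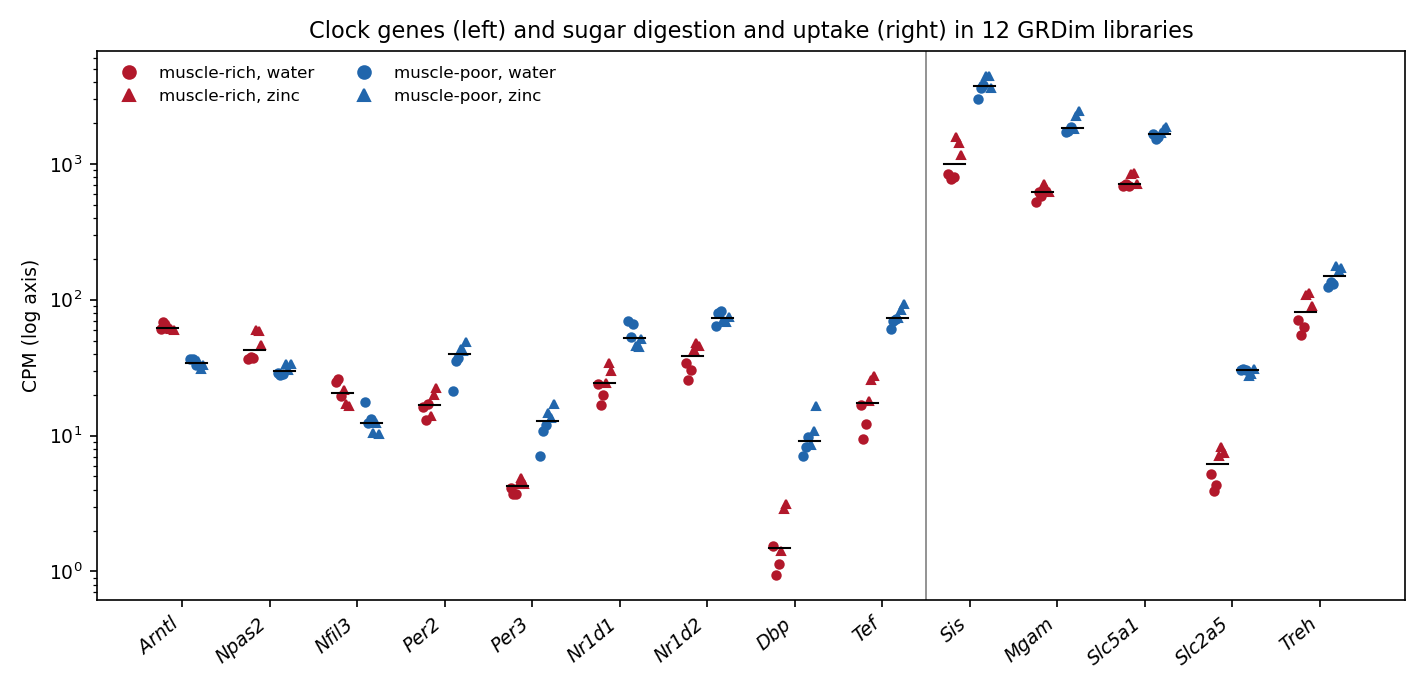
Normalised CPM (log axis) of 9 clock genes and 5 genes of sugar digestion and uptake in each GRDim library, with colours, symbols and bars as for the marker lists. Arntl lies higher and Tef, Dbp and Per3 lie lower in muscle-rich libraries, and all 5 sugar genes lie lower there without overlap.

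Genes of the circadian clock lay on both sides. The clock runs as a loop in which Arntl and its partners Clock and Npas2 switch on the Per, Cry and Nr1d repressors and the output factors Dbp and Tef. Arntl was higher in muscle-rich libraries, at 59.9 to 69.0 CPM against 30.7 to 36.3 CPM, a difference of 0.88 ± 0.05, and Npas2 was higher by 0.58 ± 0.07. Clock itself did not separate, at 0.03 ± 0.05. Several genes under their control were lower. Tef was at 9.49 to 27.6 CPM against 61.2 to 92.2 CPM (-2.09 ± 0.17), Per3 at 3.70 to 4.86 CPM against 7.06 to 17.03 CPM (-1.56 ± 0.13), and Nr1d1, the repressor REV-ERB alpha, at 16.7 to 34.1 CPM against 45.0 to 69.6 CPM (-1.15 ± 0.19). Dbp differed by -2.49 ± 0.21, and another gene lies across Dbp, Tef and Nr1d1 on the opposite strand. Of the 18 clock genes, chosen as a list after the values were seen, 2 were counted as higher in muscle-rich libraries (Hlf and Bhlhe41) and 4 as higher in muscle-poor ones. Between the sides 7 overlapped, against 9511 of all 15459 genes. Collection times are not given in the sources used here.

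The gene of the mutated receptor overlapped between the sides. Nr3c1, the glucocorticoid receptor gene, ranged from 218 to 298 CPM in muscle-rich and from 219.9 to 305.3 CPM in muscle-poor libraries, a difference of -0.09 ± 0.05 with overlap. The counts do not show the mutation. Hsd11b1, which regenerates active glucocorticoid, was counted as higher in muscle-rich libraries, at 5.59 to 9.32 CPM against at most 0.862 CPM (3.98 ± 0.26), while Hsd11b2, which inactivates it, overlapped at -0.33 ± 0.14. Of 12 glucocorticoid target genes, Fkbp5 was counted as lower in muscle-rich libraries at -1.10 ± 0.15 and Pdk4 as higher at 2.33 ± 0.30. Per1 (-0.90 ± 0.13) and Tsc22d3, also called Gilz (-0.63 ± 0.07), were lower without overlap but below the threshold of 1.

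Zinc in the drinking water was then tested within each side (edgeR quasi-likelihood test, Benjamini-Hochberg adjusted p under 0.05 and log2 change beyond 0.8), with the tissue label changing along with it. In muscle-rich libraries 113 genes (0.731%) rose and 94 (0.608%) fell, and in muscle-poor libraries 135 (0.873%) rose and 221 (1.43%) fell. These counts depended on single libraries. Leaving out one gave 97 (zinc ileum replicate 1) to 314 (zinc ileum replicate 3) genes in both directions together on the muscle-rich side, and 220 (water ileum replicate 1) to 473 (zinc IEC replicate 6) on the muscle-poor side. With all 22 libraries in the fit they were 30 and 108. Of the genes that rose, 39 were shared, which is 34.5% of the muscle-rich and 28.9% of the muscle-poor calls, and of those that fell 61 were shared (64.9% and 27.6%). The zinc-responsive genes answered on both sides. Mt1, a metallothionein that buffers zinc, was at 54.3 to 78.8 CPM on water and 1302 to 1666 CPM on zinc in muscle-rich libraries, and at 84.3 to 124 CPM and 1254 to 1572 CPM in muscle-poor ones. It rose by 4.40 ± 0.19 (adjusted p = 2.15e-06) and 3.75 ± 0.19 (adjusted p = 7.57e-06). Slc39a4, the ZIP4 importer of dietary zinc, fell by 1.59 ± 0.084 and 1.70 ± 0.083, and Slc30a2, an exporter, rose by 1.80 ± 0.16 and 1.66 ± 0.16. Of 23 zinc genes, 5 rose and 1 fell in muscle-rich libraries, and 4 rose and 1 fell in muscle-poor ones. None of the 16 smooth-muscle genes was called in either side.

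The difference between the sides in their zinc response was tested as an interaction, which 3 of 15459 genes passed (0.0194%). At an unadjusted p under 0.05 there were 1225 genes. Tfrc, the transferrin receptor, was at 266 to 278 CPM on water and 413 to 487 CPM on zinc in muscle-rich libraries, and at 251 to 307 CPM and 193 to 258 CPM in muscle-poor ones, an interaction of 1.09 ± 0.14 (adjusted p = 0.0126). Slc43a3, a nucleobase transporter, had 1.32 ± 0.21 (adjusted p = 0.0437). The next 7 genes by p, Tns4, Rbm3, Dock11, Ptprr, BC035947, Plekhh1 and Slc2a5, did not pass (edgeR adjusted p = 0.0641 for each), with interactions between -0.54 and 1.31. Since the muscle-rich zinc libraries are labelled ileum and the muscle-rich water libraries IEC, and the reverse holds on the muscle-poor side, the interaction is the same contrast as that between the labels. No interaction was called when all 22 libraries shared one estimate of the spread, and the call of Slc43a3 was lost under most alternatives.

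By the same Myh11 threshold, 6 of the 10 GRWT libraries were muscle-rich and 4 muscle-poor, the latter all labelled ileum. One of these, zinc ileum replicate 3, held 18.2 CPM of the ileal gene Fabp6 against at least 3967 CPM in each other library of the series, so values are given with and without it. Of the 2468 genes counted as higher in muscle-rich GRDim libraries, 2416 were tested in GRWT mice and 2170 (89.8%) were counted in the same direction, against 18.0% of all GRWT genes tested. Without that library the figures were 2221 of 2415 (92.0%) against 18.2%. Of the 2416 genes, 2392 had the same sign. Of the 124 genes counted as higher in muscle-poor GRDim libraries, 120 were tested, 115 had the same sign and 51 (42.5%) were counted in the same direction, against 2.48% of all, or 45 of 119 (37.8%) against 1.84% without it. In the fit over all 22 libraries described below, the GRWT side difference was 1.57 for Arntl and -2.63 for Tef, or 1.30 and -2.32 without that library. Hlf, counted as higher in muscle-rich GRDim libraries, was at -1.32 in GRWT mice in that fit, or 0.32 without that library.

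The genotypes differed in where many of the listed lymphocyte, mast cell and interferon genes lay. In an edgeR fit over all 22 libraries, added after the values were seen, the side difference of GRDim mice was compared with that of GRWT mice, and 949 of 16389 genes (5.79%) passed an adjusted p under 0.05 (2077 of 16332, 12.7%, without the library named above). Of 12 T cell genes, 9 passed, or 8 without that library, in each case with a higher muscle-rich level relative to muscle-poor in GRDim mice. On the scale of that fit, Cd8a was at 30.02 to 54.1 CPM (median 42.5) in muscle-rich and 31.0 to 63.2 CPM (median 54.5) in muscle-poor GRDim libraries, which overlap, and at 7.34 to 11.8 CPM (median 10.1) and 27.1 to 75.2 CPM (median 43.7) in GRWT libraries, which do not. The side differences differed by 2.02 ± 0.30 (adjusted p = 0.000604), or 1.55 ± 0.24 without that library (adjusted p = 0.000797). Gzmb, the granzyme of cytotoxic cells, differed by 2.57 ± 0.45 (adjusted p = 0.0027). Of 8 mast cell genes, 4 were tested and all 4 passed, but Mcpt4 and Cpa3 lay near the floor on the lower side of each genotype. Mcpt1, the protease of mucosal mast cells, was at 3.06 to 8.996 CPM and 3.58 to 6.09 CPM on the GRDim sides and at 0.585 to 3.04 CPM and 20.3 to 58.2 CPM on the GRWT sides, a difference of 4.66 ± 0.44 (adjusted p = 7.7e-06).

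Of 20 interferon-stimulated genes, 11 passed the same test, 9 of them in that direction. Irf1, a transcription factor induced by interferon, was at 281.4 to 398.9 CPM and 326.3 to 556.6 CPM on the GRDim sides, and at 144.7 to 227.2 CPM in muscle-rich and 341.4 to 553.5 CPM in muscle-poor GRWT libraries, a difference of 0.99 ± 0.14 (edgeR adjusted p = 0.000302). Ifit1, an antiviral effector, differed by 1.72 ± 0.35 (adjusted p = 0.00798), or 1.07 ± 0.24 without that library (adjusted p = 0.00892). The guanylate-binding genes Gbp6 and Gbp8 went the other way, at -2.33 ± 0.45 and -1.30 ± 0.29, and Gbp8 overlaps Gbp4 and Gbp9. Gbp2 did not pass and was higher on the muscle-rich side in both genotypes, by 1.64 in GRDim and 1.57 in GRWT mice. Of 5 necroptosis genes 4 passed, or 3 without that library, when Ripk1 was lost. Zbp1, the nucleic acid sensor that starts necroptosis, was at 62.9 to 111 CPM and 53.6 to 157 CPM on the GRDim sides and at 7.56 to 14.8 CPM and 37.4 to 110 CPM on the GRWT sides, a difference of 2.32 ± 0.22 (adjusted p = 7.7e-06). Mlkl, the executioner of necroptosis, differed by 1.09 ± 0.12 (adjusted p = 2.55e-05). For Cd8a, Irf1 and Zbp1 the GRDim sides overlapped, and all 6 muscle-rich GRWT libraries stood below every other library. None of the 12 glucocorticoid targets passed, and of 18 clock genes 3 did, or 5 without that library. The T cell genes moved together with the interferon and necroptosis genes, and their part in the result was not tested. The muscle-poor GRWT libraries are all labelled ileum and the muscle-poor GRDim libraries carry both labels, so genotype and label cannot be fully told apart here.

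**Figure D5:**
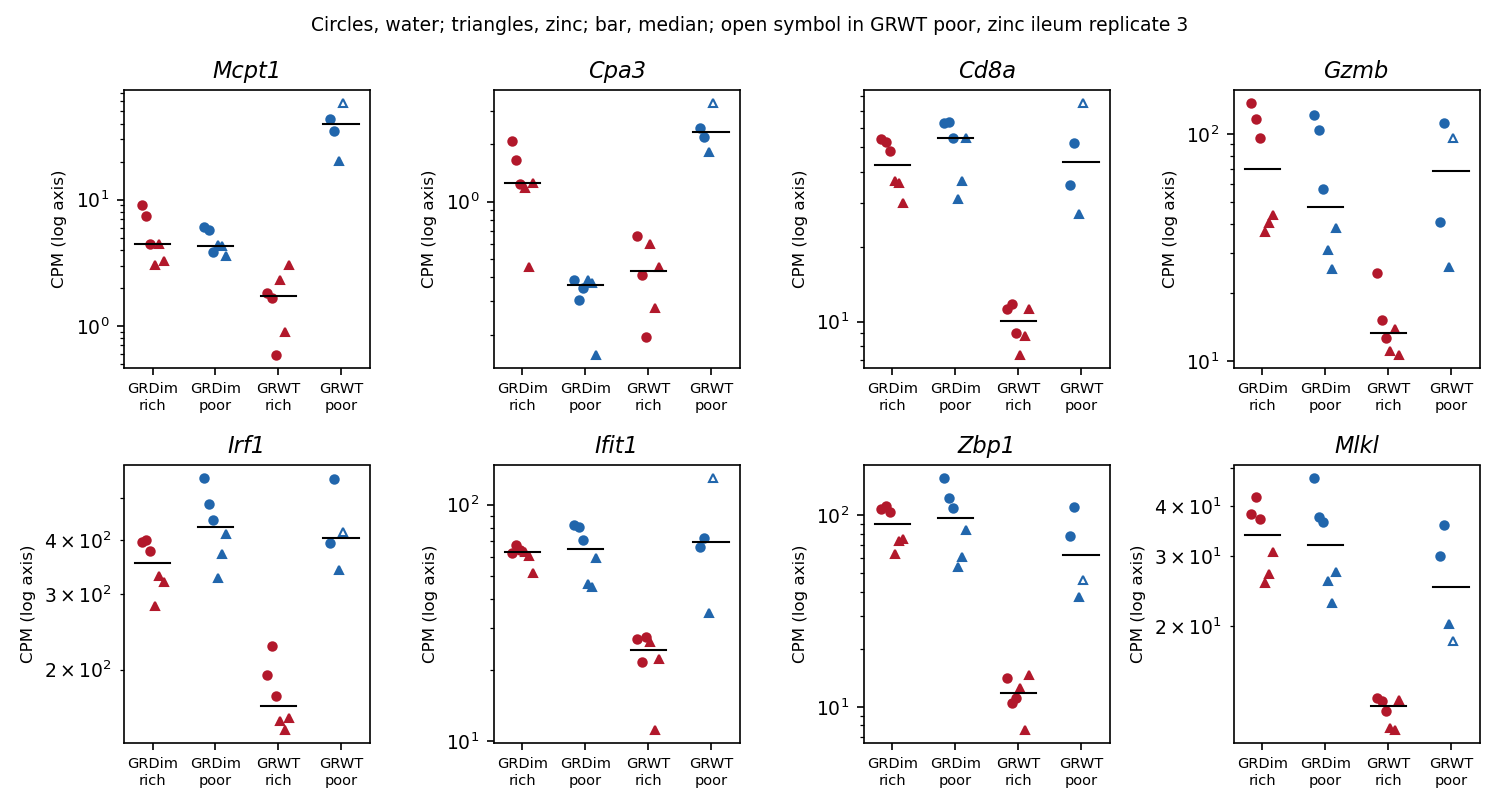
Normalised CPM (log axes) of mast cell, T cell, interferon and necroptosis genes in 22 libraries by genotype and side. Circles are water and triangles zinc, bars are medians, and the open triangle in the last group is GRWT zinc ileum replicate 3. Muscle-rich and muscle-poor GRDim libraries overlap for Cd8a, Irf1 and Zbp1, while muscle-rich GRWT libraries lie below all others in these genes.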

How the data were processed

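Total RNA of small intestine was sequenced from stranded single-end libraries. According to the submitters' processing notes, the authors used Trimmomatic, HISAT2 2.0.4, SAMtools and featureCounts on build mm10. The deposited file holds raw counts for 54838 Ensembl genes in 22 libraries without normalization; 54809 were named from GENCODE vM21. Neither annotation release nor strand setting of the counting is given in the sources used here, so overlapping genes are uncertain. The labels do not say whether replicates are separate animals, so p-values measure the spread between these libraries only.

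Groups were taken from the labels and sides from Myh11. In R 4.3.3, edgeR 4.0.16 was run with TMM factors, filterByExpr on the label groups (15459 genes tested) and robust quasi-likelihood fits with drinking water as covariate, or with side and water combined for zinc and the interaction; p-values were adjusted by Benjamini-Hochberg over all genes. SEs were derived from the F statistic. A count of 3 was the floor, and intervals (95%, exact binomial) cover counting error only, as reads carried no molecular identifiers. Genes were named from 38 lists (371 entries), from 4 lists written after the data were seen, and as the 12 with the largest difference in each direction among counted genes with a mean of at least 5 CPM and a proper name, or the 10 with the smallest interaction p. Members and lists were chosen with earlier results of these data known. Scripts were tested on simulated data. Some genes that enter the counts are not reported here. Alternatives were other scalings and filters, DESeq2 1.42.0, each library left out, each drinking water alone, and all libraries in the fit.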

Additional observations from a re-analysis of the deposited data

Results flagged for a closer look

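Among 159 groups of 6 libraries tested with Dixon's criterion, 11 held a library far from the others, where chance gives about 1 in 20 groups. In muscle-rich libraries, zinc ileum replicate 1 was the highest for the plasma protein genes Serpina3k (45.519 CPM) and Itih4 (25.565 CPM) and for Plb1 (8.2375 CPM). Water IEC replicate 4 was the highest for the summed adipocyte list (66.753 CPM) and zinc ileum replicate 2 for Cdh5 (14.111 CPM). In muscle-poor libraries, zinc IEC replicate 4 was the highest for Plb1 (90.376 CPM), Gip (15.563 CPM), Abcc2 (310.08 CPM) and Slc5a4b (24.569 CPM). Zinc IEC replicate 6 was the highest for the summed goblet list (20131 CPM), and water ileum replicate 1 the lowest for the summed list of interstitial cells of Cajal (30.887 CPM).

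An interaction of side and zinc (edgeR) was called for Tfrc (1.09 on the log2 scale) and Slc43a3 (1.32). This contrast is the same as that between the tissue labels, so a difference in zinc response cannot be told apart from the label. No interaction was called when all libraries of the series shared a common estimate of the spread. The call of Slc43a3 was also lost under most alternatives.

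The side difference differed between genotypes for the listed genes that follow (edgeR, adjusted p under 0.05, GRDim minus GRWT, log2). The mast cell genes were Mcpt4 (6.24), Mcpt1 (4.66), Cpa3 (4.36) and Mcpt2 (4.25). Mcpt4 was at or near the floor, at 0 to 0.234 CPM in muscle-poor GRDim and 0 to 0.343 CPM in muscle-rich GRWT libraries. Cpa3 was at 0.156 to 0.388 CPM and 0.195 to 0.662 CPM on the same sides. The T cell genes were Gzmb (2.57), Gzma (2.34), Cd8a (2.02), Cd3e (1.86), Cd5 (1.79), Itgae (1.74), Cd7 (1.73), Cd3g (1.71) and Cd160 (1.43). The interferon-stimulated genes were Ifit1 (1.72), Cxcl10 (1.55), Ifit3 (1.27), Cxcl9 (1.23), Ifit2 (1.15), Irf1 (0.99), Irf8 (0.76), Stat2 (0.47), Gbp8 (-1.30) and Gbp6 (-2.33). The necroptosis genes were Zbp1 (2.32), Mlkl (1.09), Ripk3 (0.58) and Ripk1 (0.25), and the clock genes Hlf (2.65), Per3 (1.10) and Npas2 (-0.74). Without GRWT zinc ileum replicate 3, values moved by over 1.5 times for Hlf (1.00), Per3 (0.72), Ifit1 (1.07), Ifit3 (0.83), Cd3e (1.24) and Cd7 (1.09), and the calls of Cd5 (1.70, adjusted p = 0.0508) and Ripk1 (0.20, adjusted p = 0.0536) were lost.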

How the results depend on the processing

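For the GRDim libraries, 5 counts and 39 gene values were recomputed under the alternatives. Of 96 comparisons of counts, 23 moved by over 1.5 times or to or from 0. Of 759 comparisons of gene values, 43 moved beyond the spread within groups and 21 lost an interaction call. None of these counts and values reversed direction. Outside these, leaving out GRWT zinc ileum replicate 3 turned the GRWT difference of Hlf from -1.32 to 0.32 and also the sign of several genotype differences that were not called with all libraries, among them Pdk4 (2.13 to -1.51) and Irf7 (0.10 to -0.36), and by library totals 1 of 14 pan-epithelial genes was no longer negative. The number of genes counted as higher in muscle-rich libraries (2468) stayed within 1.5 times under every alternative and between 2524 and 2598 when one library was left out. The rule of no overlap is easier to meet with fewer libraries. Counts with a library left out, in either direction, therefore do not measure stability. The number counted as higher in muscle-poor libraries (124) was 77 by library totals alone, 226 in water libraries alone, 11 at a log2 difference of 2 and 305 without the 4 muscle-rich libraries above 5 CPM of Alb, an alternative chosen after seeing the data; leaving out one library gave 126 to 166. The interaction (3 genes) gave 130 without a filter, 37 by the DESeq2 Wald test and 0 with all 22 libraries in the fit, and 0 (without zinc ileum replicate 2) to 82 (without zinc IEC replicate 4) when one library was left out. Genes called for zinc numbered 207 in muscle-rich libraries, or 30 with all 22 libraries, and 97 (without zinc ileum replicate 1) to 314 (without zinc ileum replicate 3) with one left out. In muscle-poor libraries they numbered 356, or 108 with all 22 libraries, and 220 (without water ileum replicate 1) to 473 (without zinc IEC replicate 6). The causes were not tested. No paired analysis was possible because the groups compared within a drinking water condition share no replicate numbers. Depth limits genes near 3 counts, and the side by zinc interaction cannot be told apart from the tissue label.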
